A study of Homo sapiens with 2 samples.

Results

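Transcripts of 33 genes of the hypoxia response and of glycolysis were compared between HCT15 cells given Cas9 with a guide against ARID3B and control HCT15 cells. HCT15 is an established human colorectal adenocarcinoma line. The genes are known targets of the hypoxia-inducible factors (HIF), enzymes of the glycolytic pathway, and the 2 HIF subunits HIF1A and EPAS1. They were taken by exact gene symbol from the platform annotation, with 1 probe set per gene, the one with the highest mean of both arrays. Of the 33, 32 had a probe set annotated to that gene alone. CA9, a carbonic anhydrase that is a common marker of hypoxia, had none and was not analysed here. BNIP3 lay under the floor on both arrays, which left 31 genes among 12841 compared of 19775 in all.

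There was 1 array per group, named by its label as ARID3B knockout or as control. Both cultures shared the line, the serum-supplemented RPMI medium and the Trizol extraction, and no oxygen level is given in the labels. The labels do not say whether the edited cells were a clone or a pool, or what the control cells received. Because a group had 1 array, nothing could be tested, and each value below describes these arrays. Values are RMA expression values on the log2 scale, and a difference is the knockout-labelled minus the control array, so that 1 stands for 2-fold. Genes entered the comparison if the brighter of their 2 values was at least 4.59, the median of the non-control probe sets and called the floor.

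The label itself was not borne out by the transcript. ARID3B, which encodes a DNA-binding protein with an AT-rich interaction domain, was at 6.09 on the knockout-labelled array against 5.12 in control cells, which is 0.97 higher in its single probe set. An edit need not lower the transcript, and the sources used here do not place the guide relative to this probe set. Whether the labels of the 2 arrays were exchanged was not tested, and an exchange would turn the sign of every difference given here. Of 9 colon epithelial markers 7 reached the floor, with EPCAM at 12.2 on both arrays and KRT20 and LGALS4 under the floor. Of 9 markers of other cell types, 8 had a probe set and 4 of them (COL1A1, DCN, CD3E and PECAM1) reached the floor. COL1A1, the brightest of these 4, stood at 7.12 on the knockout-labelled array and at 6.87 on the control array. Its 2 probe sets that reached the floor differed by -2.47 and 0.25. Of the leukocyte markers, CD3E stood at 4.87 on the knockout-labelled array and at 4.71 on the control array. PTPRC, the pan-leukocyte marker, stood at 2.72 on the knockout-labelled array and at 2.48 on the control array. In bulk RNA, fewer cells with a transcript and less of it per cell cannot be told apart.

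HIF is a transcription factor of an oxygen-regulated alpha subunit, such as HIF1A or EPAS1, and the constant beta subunit ARNT. In the presence of oxygen, prolyl hydroxylases of the EGLN family mark the alpha subunit for destruction through the VHL ubiquitin ligase, so that HIF activity is set largely by protein stability. When oxygen is short, HIF raises the transcription of glucose transporters, glycolytic enzymes, angiogenic factors, mitophagy receptors and its own hydroxylases. Colorectal cancer cells also run glycolysis in the presence of oxygen, in part through MYC and other growth signals that act on the same enzymes.

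NDRG1 and VEGFA, effector genes of the HIF response, had the highest differences of the 31 genes, and all 7 effectors compared were higher on the knockout-labelled array. Most glycolytic enzymes were slightly higher, while both glucose transporters and both oxygen sensors were lower in the probe sets used, but higher when scaled on spike-ins. At 2-fold or more, 2 of 31 genes were higher, against 1.05% of all genes compared, and 0 were lower, against 3.79%. At 1.5-fold or more, 8 were higher, against 5.83% of all genes, and 2 were lower, against 10.5%. Above 0 lay 23 of the 31, against 52.9% of all genes, and below 0 lay 8, against 45.1%. The median difference of the 31 was 0.27, beside 0.04 for all genes compared.

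These directions are relative to the other transcripts, since RMA, the method the submitters name, sets arrays normalised together to a common distribution. Which arrays were normalised together is not stated, and the medians of these 2 were both 4.59. Poly-A spike-ins, which are bacterial RNAs usually put into the sample ahead of labelling, were represented by 24 probe sets and differed by a mean of -1.19. Scaled on them every gene moves up by 1.19, and each of the 31 genes, those lower here included, is then higher on the knockout-labelled array. The shift is the same for all genes compared. Only genes at least 2-fold lower before it, 3.79% of all genes, can then still lie below 0. Scaled on the 51 ribosomal protein genes, 20 of the 31 lay above 0, and centred on the median of all genes 21 did. These scalings lower every gene by 0.09 and 0.04, so the share of all genes above 0, 52.9% before them, falls as well.

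**Figure D1:**
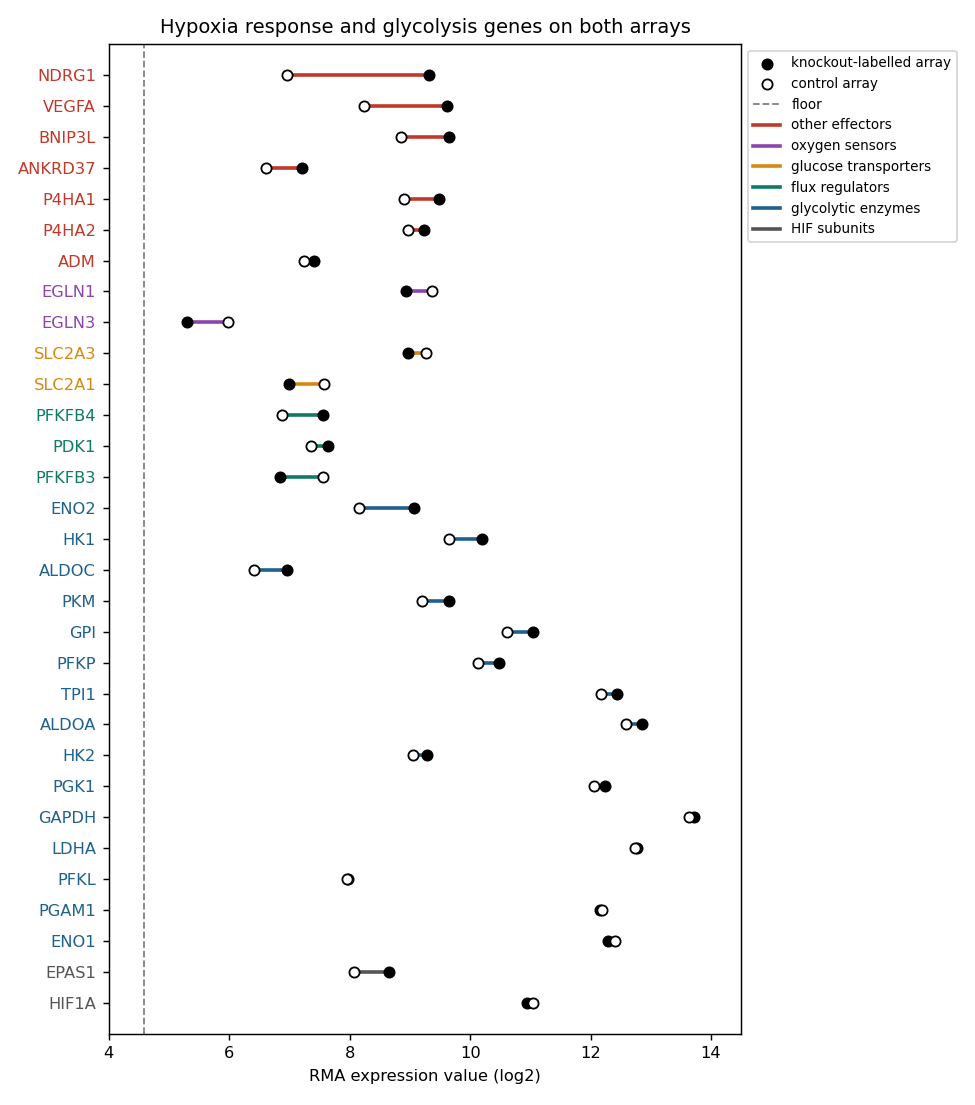
RMA expression value (log2) of the 31 compared genes on the knockout-labelled array (filled points) and the control array (open points), 1 array each, with genes grouped by role and the dashed line at the floor of 4.59. NDRG1 shows the widest gap, 9.32 against 6.97, and the enzymes with values above 12 show gaps that are hardly visible.

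Among the effectors, NDRG1, a stress- and hypoxia-induced gene linked to differentiation and metastasis suppression in colon epithelium, had a value of 9.32 on the knockout-labelled array and 6.97 on the control array. The difference of 2.35, or 5.09-fold, was the tenth highest of all 12841 genes, and NDRG1 had only this 1 probe set. VEGFA, the angiogenic growth factor, stood at 9.62 on the knockout-labelled array and at 8.23 on the control array, 2.62-fold higher. All 4 of its probe sets were higher, by 1.01 to 1.39. The spread among genes of similar level, as a scaled median absolute deviation in 10 bins of the mean, was 0.388 for both genes. NDRG1 thus lay 6.06 and VEGFA 3.58 times that spread from 0.

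The remaining effectors were higher by less. BNIP3L, a receptor that directs mitochondria to autophagy, had 9.64 on the knockout-labelled array and 8.86 on the control array, differing by 0.79 with 0.54 in its second probe set. ANKRD37, a small ankyrin-repeat HIF target, had 7.22 on the knockout-labelled array and 6.61 on the control array (0.61). P4HA1, the catalytic subunit of the collagen prolyl hydroxylase, had 9.49 on the knockout-labelled array and 8.90 on the control array (0.59). These 3 genes passed 1.5-fold, whereas P4HA2, the second catalytic subunit, differed by 0.27 and the vasodilator peptide gene ADM by 0.17. Both of the last lay within the spread of genes at their level, 0.366 and 0.412.

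BNIP3, the closest relative of BNIP3L, did not reach the floor. Its probe sets stood at 2.62 and 2.09 on the knockout-labelled array and at 2.12 and 2.18 on the control array, so that no difference is read from them. Of the mitophagy pair only BNIP3L was therefore compared.

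The oxygen sensors were lower in their brightest probe sets, and higher only when scaled on the spike-ins. EGLN3, a prolyl hydroxylase that is itself a HIF target, had 5.30 on the knockout-labelled array and 5.97 on the control array, differing by -0.67. Its second probe set was under the floor on both arrays, and no difference is read from it. EGLN1, the main hydroxylase of HIF1A in most cells, had 8.94 on the knockout-labelled array and 9.37 on the control array (-0.43), but 2 further probe sets above the floor differed by 0.01 and 0.17. The lower value of EGLN1 therefore holds for 1 of 3 probe sets.

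Glucose uptake genes were lower as well, again with the exception of the spike-in scaling. SLC2A1, which encodes the widely expressed transporter GLUT1, had 7.00 on the knockout-labelled array and 7.58 on the control array, differing by -0.58, just short of 1.5-fold. SLC2A3, the high-affinity transporter GLUT3, had 8.98 on the knockout-labelled array and 9.27 on the control array (-0.30), within the spread of 0.366. All 3 of its probe sets were lower, by -0.44 to -0.27. The 2 probe sets that the annotation gives jointly to SLC2A3 and SLC2A14, not used for any gene, differed by -0.32 and -0.38.

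The regulators of glycolytic flux differed in both directions. PFKFB3 and PFKFB4 encode bifunctional enzymes that make and remove fructose 2,6-bisphosphate, the activator of phosphofructokinase, and they differed in opposite directions under every scaling except that on the spike-ins, where both were higher. PFKFB4 had 7.56 on the knockout-labelled array and 6.87 on the control array, differing by 0.69, with 0.44 in its second probe set, which did not reach the floor in control cells and was at least 1.17-fold higher. PFKFB3 had 6.85 on the knockout-labelled array and 7.56 on the control array in its single probe set, a difference of -0.71, the lowest of the 31 genes. PDK1, the kinase that turns off pyruvate dehydrogenase, differed by 0.29, within the spread of 0.412 at its level.

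**Figure D2:**
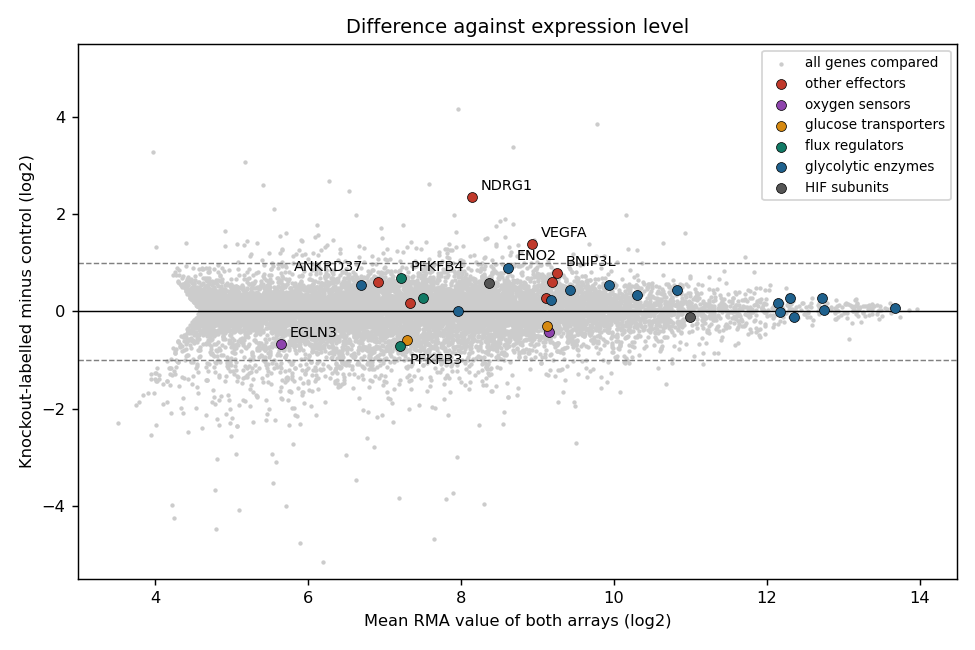
Difference between the knockout-labelled and the control array (log2) against the mean of both arrays (log2) for all 12841 genes compared (grey) and the 31 genes (coloured by role), with dashed lines at 2-fold. NDRG1 and VEGFA lie beyond the upper line, ENO2 lies just under it at 0.90, and EGLN3 and PFKFB3 are at the lower edge of the 31 genes (above 0 only when scaled on the spike-ins).

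All 15 glycolytic enzymes reached the floor, against 64.9% of all genes, and 13 of them lay above 0, against 52.9%. The 13 include HK2, for which no direction is given below. With the mean of the probe sets, where HK2 was at -0.74, 12 lay above 0. The count was 12 with the intensity trend removed, 11 centred on the median of all genes, 10 scaled on ribosomal protein genes and 15 scaled on the spike-ins. The median difference of the enzymes was 0.27, their range ran from -0.11 to 0.90, and none reached 2-fold in either direction. The widest gap was in ENO2, the neuron-enriched enolase and a HIF target, with 9.06 on the knockout-labelled array and 8.16 on the control array. Its difference of 0.90, or 1.87-fold, ranked 199th from the top of all genes, and it rests on 1 probe set. At the other end ENO1, the enolase of most tissues, had 12.3 on the knockout-labelled array and 12.4 on the control array (-0.11), and its 4 probe sets spread from -0.31 to 0.09.

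The enzymes follow here in pathway order. HK1, the housekeeping hexokinase that traps glucose as its 6-phosphate, had 10.2 on the knockout-labelled array and 9.66 on the control array (0.55). GPI, the next enzyme, had 11.05 on the knockout-labelled array and 10.6 on the control array (0.44). PFKP, the platelet-type phosphofructokinase, differed by 0.34 and the liver-type PFKL by 0.01, although a dimmer PFKL probe set differed by 0.31. Each of HK1, GPI and PFKP lay outside the spread of 0.255 at its level, and PFKL lay inside its own.

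HK2, the inducible hexokinase of tumours, depended on the probe set. The brightest had 9.29 on the knockout-labelled array and 9.06 on the control array, differing by 0.23. The other 2 probe sets had 3.95 and 3.51 on the knockout-labelled array, both under the floor, against 4.83 and 5.08 on the control array, so that they were at least 1.18-fold and 1.41-fold lower against the floor (measured differences -0.89 and -1.58). As the mean of all 3, HK2 differed by -0.74, so that no direction is given for this gene.

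In the middle of the pathway, ALDOA, the aldolase of muscle and most other tissues, had 12.9 on the knockout-labelled array and 12.6 on the control array (0.27). ALDOC, the brain-type aldolase, had 6.96 on the knockout-labelled array and 6.41 on the control array (0.54). TPI1, which interconverts the triose phosphates, differed by 0.27 in both probe sets above the floor. GAPDH, the dehydrogenase often used as a reference transcript, had 13.7 on the knockout-labelled array and 13.6 on the control array (0.08), and its 6 probe sets differed by 0.07 to 0.13, less than or close to the shift of 0.09 that scaling on ribosomal protein genes removes. PGK1, the first ATP-forming kinase, differed by 0.17, with 5 probe sets from 0.06 to 0.28.

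At the end of the pathway PKM, the pyruvate kinase, had 9.65 on the knockout-labelled array and 9.21 on the control array (0.45), with 0.10 in its second probe set. PGAM1, the mutase, differed by -0.02. LDHA, the lactate dehydrogenase subunit and a much-used HIF target, had 12.8 on the knockout-labelled array and 12.7 on the control array, differing by 0.03. Neither PGAM1 nor LDHA differed by more than a small part of the spread of 0.255 at their level.

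Brightness went with the size of these differences. The 7 enzymes with a mean value of 12 or more, ALDOA, TPI1, GAPDH, PGK1, PGAM1, ENO1 and LDHA, differed by -0.11 to 0.27 with a median of 0.08. The 8 dimmer enzymes differed by 0.01 to 0.90 with a median of 0.44. The highest value of any probe set was 13.997 on the knockout-labelled array and 13.944 on the control array, so the brightest enzymes lay close to the top of the scale, and the part of this in their small differences was not tested. The dividing value of 12 was chosen after the data were seen.

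The glycolytic enzymes and the other HIF targets had almost the same median. Their medians were 0.27 over 15 enzymes and 0.28 over 14 other targets, which are the 31 genes without the enzymes and without HIF1A and EPAS1. The spread was unlike: the enzymes spanned 1.01 from lowest to highest and the other targets 3.06, with scaled median absolute deviations of 0.29 and 0.80. The lists also differed in level, which these figures do not take into account. Mean values on the knockout-labelled and control arrays were 10.9 and 10.6 for the enzymes. For the other targets, BNIP3 included, they were 7.79 and 7.46. Over the 10 bins the spread of all genes ran from 0.255 to 0.437, and it was 0.255 in the bin of the brightest enzymes. Outside the spread of genes at their own level were 8 enzymes, all higher, and 10 other targets, 6 higher and 4 lower, against 34.8% of all genes in either direction. When the transporters and flux regulators were counted with the enzymes, the medians were 0.25 for that larger glucose group and 0.59 for the remaining targets.

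**Figure D3:**
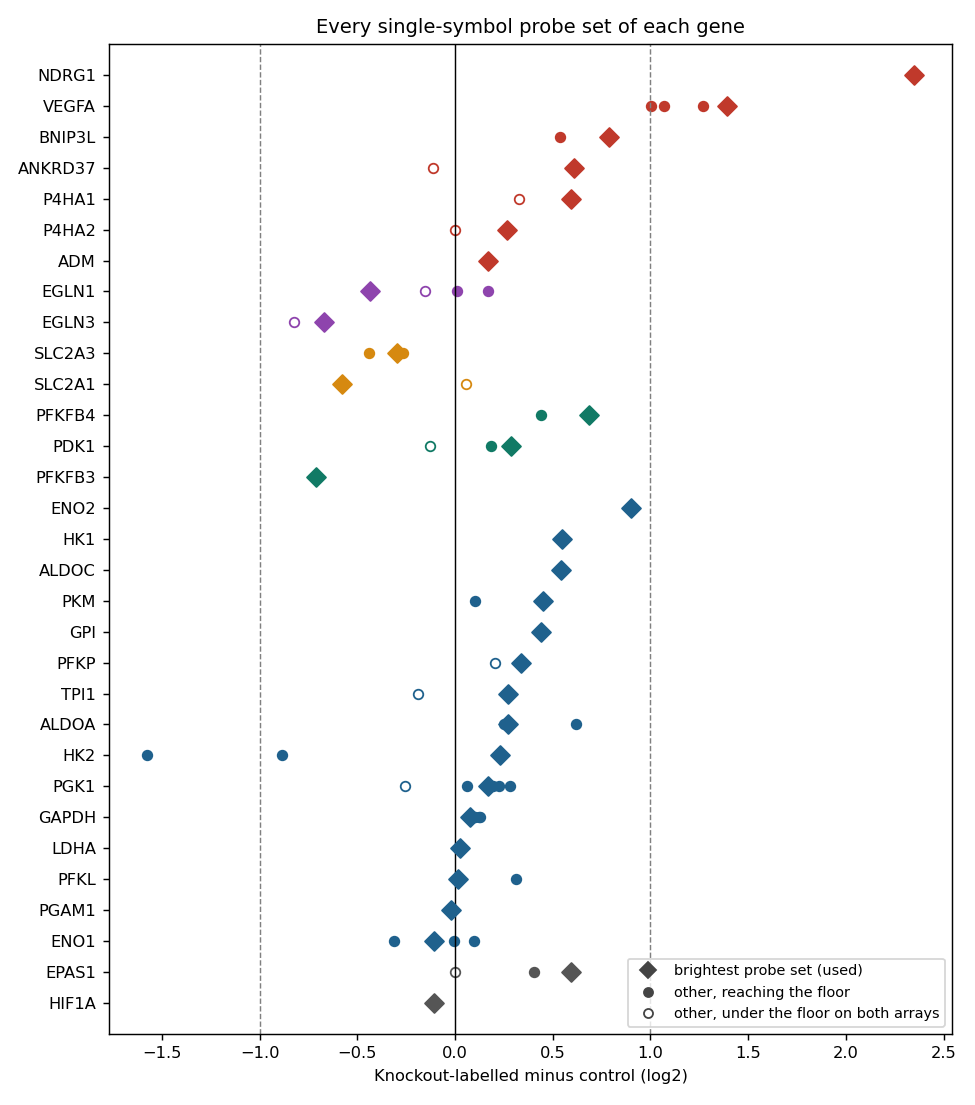
Difference between the knockout-labelled and the control array (log2) for every probe set annotated to 1 of the 31 compared genes alone, with diamonds for the probe set used, filled circles for others that reached the floor, and open circles for others under it on both arrays. The 4 VEGFA probe sets all lie beyond 1, while those of HK2 spread from -1.58 to 0.23.

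For 16 genes 2 or more probe sets reached the floor, and in 13 of these genes all of them differed in 1 direction. The same held for 61.1% of the 6297 genes of that kind among all genes compared. The exceptions were HK2, ENO1 and EGLN1. A further 15 compared genes, NDRG1, ENO2 and PFKFB3 among them, had a single probe set above the floor and hence no such check.

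Paralogues with the same biochemical role differed unequally in several pairs. Of 10 pairs 9 could be compared, and in 3 the members lay on opposite sides of 0, though on the same side when scaled on the spike-ins. PFKFB4 exceeded PFKFB3 by 1.40 in its difference, and ENO2 exceeded ENO1 by 1.01. EPAS1, the HIF alpha subunit also called HIF-2 alpha, had 8.66 on the knockout-labelled array and 8.06 on the control array, differing by 0.59 with 0.40 in its second probe set above the floor. HIF1A had 10.9 on the knockout-labelled array and 11.0 on the control array, differing by -0.11 inside the spread of 0.255. The transcripts of both subunits say nothing of their proteins, which are set mainly by degradation. In the remaining 6 pairs the differences of the probe sets used lay 0.24 to 0.33 apart. Both fell on the same side of 0, but for HK1 and HK2 this rests on the brightest HK2 probe set, and PFKL (0.01) fell below 0, opposite PFKP, when centred on the median, with the intensity trend removed or scaled on ribosomal protein genes.

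The HIF core motif was looked for in the promoters of these genes. RefSeq promoters of build GRCh38.p14, each 250 bases before to 50 after a transcription start, matched 29 of the 33 genes with 46 promoters. NDRG1, VEGFA, BNIP3L and SLC2A3 had no promoter there. The genes at least 2-fold higher, NDRG1 and VEGFA, are thus absent from all motif counts and medians below. The letters ACGTG on either strand occurred in 20 of the 46 (43.5%) and in 21.4% of all 35116 promoters. The palindrome CACGTG, which holds the core on both strands and is also the E-box bound by MYC, was present in 7.26% of all promoters. Among genes with 1 promoter in the table, 10 of 20 had the core, against 21.3% of all such genes. Of those 20, the 8 compared genes with the core differed by a median of 0.49 (-0.43 to 0.90), and the 10 compared genes without it by a median of 0.09 (-0.67 to 0.69). The ranges overlap widely, and a match in this window is not a binding site.

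The following promoters belong to genes that were at least 1.5-fold higher (ENO2, ANKRD37, P4HA1, PFKFB4) or lower (EGLN3) and had 1 promoter in the table, and to PGK1, an enzyme with 3 core matches that differed by 0.17. They were chosen after the values were seen, and each runs 5′ to 3′ along the gene with the core motif in capitals.
ENO2 (chr12:6914330-6914629, plus strand): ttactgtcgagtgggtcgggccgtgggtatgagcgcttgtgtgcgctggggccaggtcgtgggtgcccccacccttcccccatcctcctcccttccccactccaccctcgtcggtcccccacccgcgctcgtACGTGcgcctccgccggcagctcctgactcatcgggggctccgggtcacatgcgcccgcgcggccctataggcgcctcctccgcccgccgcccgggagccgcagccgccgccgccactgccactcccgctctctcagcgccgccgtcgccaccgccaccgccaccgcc
ANKRD37 (chr4:185396591-185396890, plus strand): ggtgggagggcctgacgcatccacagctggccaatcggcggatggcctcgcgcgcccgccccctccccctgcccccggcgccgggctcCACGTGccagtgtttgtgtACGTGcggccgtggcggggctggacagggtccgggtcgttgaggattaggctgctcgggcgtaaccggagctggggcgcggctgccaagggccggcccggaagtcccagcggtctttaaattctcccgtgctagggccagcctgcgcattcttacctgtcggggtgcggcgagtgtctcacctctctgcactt
P4HA1 (chr10:73096817-73097116, minus strand): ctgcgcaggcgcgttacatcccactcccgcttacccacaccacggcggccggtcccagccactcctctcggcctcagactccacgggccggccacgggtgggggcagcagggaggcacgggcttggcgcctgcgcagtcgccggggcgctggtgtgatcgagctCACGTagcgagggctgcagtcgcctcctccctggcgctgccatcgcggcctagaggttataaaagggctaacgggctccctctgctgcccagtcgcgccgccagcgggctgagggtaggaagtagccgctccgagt
PFKFB4 (chr3:48556754-48557053, minus strand): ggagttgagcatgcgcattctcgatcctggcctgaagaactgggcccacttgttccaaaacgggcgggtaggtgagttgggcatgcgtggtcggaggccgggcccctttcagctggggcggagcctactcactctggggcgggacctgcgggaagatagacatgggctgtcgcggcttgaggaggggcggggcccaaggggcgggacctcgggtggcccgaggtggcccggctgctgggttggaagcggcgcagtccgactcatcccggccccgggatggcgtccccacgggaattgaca
EGLN3 (chr14:33951025-33951324, minus strand): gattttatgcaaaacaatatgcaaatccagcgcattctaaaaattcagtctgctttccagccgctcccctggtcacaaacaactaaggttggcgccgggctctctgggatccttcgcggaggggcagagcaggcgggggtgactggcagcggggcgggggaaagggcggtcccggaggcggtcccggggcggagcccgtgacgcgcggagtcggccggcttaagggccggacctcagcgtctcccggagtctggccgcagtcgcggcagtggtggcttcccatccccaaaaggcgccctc
PGK1 (chrX:78103998-78104297, plus strand): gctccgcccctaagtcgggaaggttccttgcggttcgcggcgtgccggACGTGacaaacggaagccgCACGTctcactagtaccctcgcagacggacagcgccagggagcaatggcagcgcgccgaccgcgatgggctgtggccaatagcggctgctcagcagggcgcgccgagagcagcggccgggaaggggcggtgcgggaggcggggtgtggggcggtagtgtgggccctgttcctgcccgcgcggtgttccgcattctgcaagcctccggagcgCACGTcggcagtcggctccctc
ANKRD37 held 2 stretches with the core, the first of them the palindrome, and ENO2 and P4HA1 held 1 each. PFKFB4, higher by 0.69, and EGLN3, lower at -0.67, held none in this window. Past 1.5-fold but not printed, EPAS1 was higher by 0.59 with no core in its promoter. PFKFB3, also not printed, was lower at -0.71 with the palindrome in 1 of its 2 promoters. NDRG1, VEGFA and BNIP3L were past 1.5-fold too, and had no promoter among those searched.

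Of the machinery that controls HIF, 15 of 17 listed regulators were compared. In the probe sets used, none reached 1.5-fold in either direction, against 5.83% of all genes higher and 10.5% lower. VHL, the substrate receptor of the ligase that removes HIF alpha, differed by -0.22. ARNT, the shared beta subunit, differed by 0.07 in the probe set used. All 4 ARNT probe sets that reached the floor were higher, by 0.07 to 1.01. HIF1AN, the asparagine hydroxylase that blocks the activation domain of HIF, had 6.54 on the knockout-labelled array and 6.95 on the control array (-0.41), with 3 of 3 probe sets lower. The list median was 0.00, with 7 regulators above 0 and 8 below, against 52.9% and 45.1% of all genes. Scaled on ribosomal protein genes 5 lay above 0 and 10 below, and on the spike-ins, which raise every gene, 15 lay above 0.

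Further HIF targets gave a mixed picture. Of 30 listed, 23 were compared with a median of 0.16, 14 lay above 0, against 52.9% of all genes, 3 were at least 2-fold higher, against 1.05%, and none 2-fold lower, against 3.79%. DDIT4, an inhibitor of mTORC1 known to respond to both HIF and ATF4, had 11.7 on the knockout-labelled array and 7.86 on the control array (3.85). BHLHE40, a circadian repressor, had 7.56 on the knockout-labelled array and 6.50 on the control array (1.06), with 0.48 in its second probe set. KDM3A, a histone H3 lysine 9 demethylase induced by HIF, had 8.70 on the knockout-labelled array and 7.69 on the control array (1.02). The lowest was TFRC, the transferrin receptor, at -0.86.

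Further genes of glycolysis and of pyruvate handling differed in both directions, from -0.84 to 1.49. Of 31 listed, 23 were compared with a median of 0.09, 16 lay above 0, and 2 were at least 2-fold higher with none 2-fold lower, beside 52.9%, 1.05% and 3.79% of all genes. PCK2, the mitochondrial PEP carboxykinase, had 9.06 on the knockout-labelled array and 7.57 on the control array (1.49). PDK4, a pyruvate dehydrogenase kinase of the starvation response, had 6.29 on the knockout-labelled array and 5.01 on the control array (1.28), and its isoform PDK2 differed by 0.61. TIGAR, a phosphatase that lowers fructose 2,6-bisphosphate, was the lowest at -0.84.

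Listed genes of a stress programme that shares targets with HIF were higher on the same array. The list was chosen with earlier results of these data known, so setting it beside all genes is no independent check. ATF4, the transcription factor of the integrated stress response, is known to induce VEGFA, DDIT4 and PCK2 as well. Its own value was 12.2 on the knockout-labelled array and 11.4 on the control array (0.81). All 14 genes of the ATF4 and CHOP list were compared and lay above 0, with a median of 0.95, and 6 of them were at least 2-fold higher, beside 52.9% of all genes above 0 and 1.05% at least 2-fold higher. DDIT3, which encodes CHOP, had 10.4 on the knockout-labelled array and 6.99 on the control array (3.39), and CHAC1 differed by 2.63. ATF5, which is not in the list, went the other way and differed by -1.10. The direction shared by the 14 genes therefore holds for the list as chosen. The part of this programme in the differences of NDRG1 and VEGFA was not tested.

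**Figure D4:**
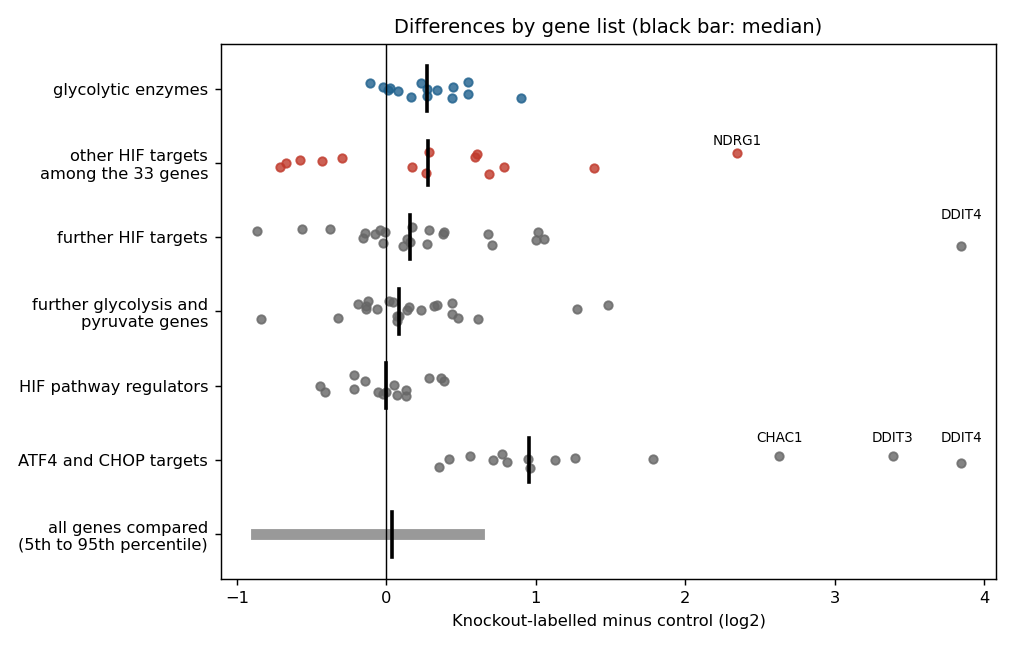
Difference between the knockout-labelled and the control array (log2) of each compared gene (points, with vertical jitter) in 6 lists, with the list median as a black bar and, for all 12841 genes, the 5th to 95th percentile as a grey bar. The enzymes and the other HIF targets share a median near 0.27 but not a range. All 14 listed ATF4 and CHOP targets lie above 0, and DDIT4 is in 2 lists.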

How the data were processed

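Each of the 2 arrays, 1 of HCT15 cells labelled ARID3B knockout and 1 of control cells, gave 54675 probe set values. Per the submitters' processing notes, RMA was used to make the deposited log2 values. No version, and no statement of which arrays were normalised together, is given in the sources used here. RMA's quantile step removes differences in total RNA, and the method compresses dim values.

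Of the probe sets, 41097 carried a single symbol, 1801 several and 11777 no symbol in the platform's annotation. Symbols were checked by Entrez identifier against RefSeq GRCh38.p14, which held 41043 of them and changed none. A gene was its probe set with the highest mean, compared when its higher value reached the floor of 4.59. Counts use thresholds of 2-fold and 1.5-fold, and the spread is the scaled median absolute deviation in 10 bins of mean value. With 1 array per group no p-value or standard deviation was computed, and precision is limited by the number of arrays.

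The genes and lists were chosen with earlier results of these data known. Named are all 33 genes, the genes of the other lists past 2-fold, VHL, ARNT and HIF1AN, and ARID3B. The list extremes TFRC and TIGAR, ATF4 itself, ATF5, PDK2 and the markers EPCAM, KRT20, LGALS4, COL1A1, DCN, CD3E, PECAM1 and PTPRC were added after their values were seen. Of the genes past 2-fold in the ATF4 and CHOP list, ASNS differed by 1.26, SESN2 by 1.78 and VLDLR by 1.13. The alternatives were the floor, the choice of probe set, the scaling, a loess trend with span 0.3, 64 linear units added, means for medians, and the grouping of transporters and flux regulators. The procedure was tested on simulated data with planted differences (Python, pandas and statsmodels).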

Additional observations from a re-analysis of the deposited data

How the results depend on the processing

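Across the alternatives the count of genes at least 2-fold higher stayed at 2, except that it was 0 without probe sets marked _s_at, _x_at or _a_at, since NDRG1 and VEGFA have no others, and 26 when scaled on the poly-A spike-ins. None was 2-fold lower under any of them. The count at least 1.5-fold higher was 8, and it was 4 with the mean of the probe sets, 4 with 64 linear units added, 5 centred on the median, 5 scaled on ribosomal protein genes, 5 without the marked probe sets, 6 with the loess trend removed and 29 on the spike-ins. The count at least 1.5-fold lower was 2, and it was 3 with the mean of the probe sets, with the loess trend removed, centred on the median and scaled on ribosomal protein genes, 1 with the floor at the 75th percentile, and 0 with 64 units added, without the marked probe sets or on the spike-ins. With the mean of the probe sets the medians were 0.17 for all 31 genes, 0.16 for the enzymes and 0.18 for the other HIF targets, and on the spike-ins they were 1.46, 1.46 and 1.46. All 8 genes below 0 changed sign on the spike-ins, among them the 2 past 1.5-fold, EGLN3 (0.52) and PFKFB3 (0.47). The spike-in scaling raises every gene compared by 1.19, and the share of all genes past each threshold was not computed for it. Counting transporters and flux regulators as enzymes gave a median of 0.59 for the other targets and put the enzymes minus the other targets at -0.34, against -0.005 otherwise. The causes were not tested beyond the absent probe sets named. No paired analysis was possible because each group has 1 array, and with 1 array per group the spread between cultures is unknown.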
